A study of Mus musculus with 2 samples.

Results

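Nr4a1, Nr4a2, Nr4a3, Egr1, Egr2 and Egr3 are 6 transcription factor genes that lymphocytes switch on within a short time of antigen receptor stimulation. They were taken by gene symbol from the 31253 genes counted in the files, and all 6 were found. Their RNA was read by single-cell RNA sequencing of cells sorted from mouse spleen as CD4+Foxp3+ regulatory T cells (Treg cells, the T cells that restrain immune responses). There were 2 libraries, a Foxp3YFP-CreKmt2dfl/fl library (fl/fl below) and a Foxp3YFP-CreKmt2d+/+ library (+/+ below), each made with the 10x Genomics 3′ v3.1 kit from the pooled cells of 3 mice. Both genotypes carry a YFP-Cre expressed from the Foxp3 locus, so Cre is made in cells that express Foxp3, and the libraries differ in the Kmt2d alleles, which are floxed in one and intact in the other. Kmt2d encodes a histone methyltransferase of enhancers. Age and sex of the mice are not given in the sources used here.

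The NR4A genes encode orphan nuclear receptors. In T cells they are induced by receptor signals, in part through calcium, and in Treg cells they help to keep Foxp3 expressed and the cells suppressive. The EGR genes encode zinc finger factors that are induced in part through the MAPK pathway. Egr1 is the most general of them, while Egr2 and Egr3 are linked to anergy, the unresponsive state of T cells that see antigen without costimulation. EGR factors are held in check by the corepressors Nab1 and Nab2, and Nab2 is itself induced by EGR factors.

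The fl/fl library held 8784 barcodes and 63989234 unique molecular identifiers (UMIs, each one an RNA molecule counted), and the +/+ library held 7947 barcodes and 53680614 UMIs. The libraries shared 15 barcodes, 0.171% of those of fl/fl and 0.189% of those of +/+. After filtering, cells were assigned by marker UMIs to gates, none of which used a gene described here. The Treg gate held 3625 fl/fl and 3553 +/+ cells, the conventional CD4 gate 911 and 1000, the CD8 gate 304 and 223, and the B cell gate 1188 and 467. The CD8 and B cell gates hold cell types outside the sort label. Of the last 3 gates the B cell gate was the largest in fl/fl. The conventional CD4 gate was cut by no Foxp3 UMI and at most 1 UMI of the Treg marker Ikzf2. Foxp3 gave 857 UMIs in the 3625 fl/fl Treg gate cells, so Treg cells with missed Foxp3 RNA may be in that gate. In the Treg gate, central cells (Ccr7, Lef1 and the like) made up 75.8% in fl/fl and 58.0% in +/+, and effector cells (S100a4, Icos, Maf and the like) made up 11.9% in fl/fl and 28.9% in +/+. Kmt2d RNA was 67.0 CPM (UMI counts scaled to the same total in every gate) in fl/fl and 70.5 CPM in +/+ Treg gate cells, a log2 ratio of -0.07 with an interval that includes 0. The labels do not say which exons are floxed, and 3′ tags outside them would not show a deletion. Foxp3 was 29.2 CPM in fl/fl and 44.9 CPM in +/+ Treg gate cells, and Izumo1r, a Treg surface marker that no gate used, was 406.3 CPM in the fl/fl Treg gate against 158.0 CPM in the fl/fl conventional CD4 gate, and 579.2 CPM against 209.8 CPM in +/+.

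With 1 library per genotype there was no replicate, no test and no p-value. Ratios are log2 of CPM, fl/fl over +/+, with 95% exact binomial intervals that cover counting error only, and not the spread between cells or between mice. A gene was counted as higher or lower when it was at 10 CPM or more in either library and its CPM ratio was at least 1.5-fold with an interval that excluded no difference. This is a rule of size. In the Treg gate the median log2 ratio of the 8035 measured genes was -0.13, and the values below are read against it. In the conventional CD4 gate the median was -0.03 and in the B cell gate -0.06.

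The promoter windows of the NR4A genes and of Egr2 are shown because the NR4A windows share a dense motif content. The sequences are from RefSeq on GRCm38.p6 and run from 250 bases before to 50 bases after the start site, 5′ to 3′ on the gene's strand. Capitals mark matches on either strand to the CRE core TGACG, bound by CREB and ATF factors, to the EGR site GCGNGGGCG, and to the CArG box, bound by serum response factor. The windows are chr15:101266596-101266895 (+) for Nr4a1, chr2:57123954-57124253 (-) for Nr4a2, chr4:48045055-48045354 (+) for Nr4a3 and chr10:67537619-67537918 (+) for Egr2, whose 5 RefSeq windows include this one at the principal start of the gene. The start site of the Nr4a3 window lies 152 bases from the gene's principal start in GENCODE.
Nr4a1: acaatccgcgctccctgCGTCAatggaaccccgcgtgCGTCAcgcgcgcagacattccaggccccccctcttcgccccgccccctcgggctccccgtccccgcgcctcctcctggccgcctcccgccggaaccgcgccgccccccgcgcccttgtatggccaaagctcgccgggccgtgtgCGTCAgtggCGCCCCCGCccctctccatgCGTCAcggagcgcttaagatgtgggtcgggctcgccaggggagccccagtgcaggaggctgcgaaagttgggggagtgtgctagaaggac
Nr4a2: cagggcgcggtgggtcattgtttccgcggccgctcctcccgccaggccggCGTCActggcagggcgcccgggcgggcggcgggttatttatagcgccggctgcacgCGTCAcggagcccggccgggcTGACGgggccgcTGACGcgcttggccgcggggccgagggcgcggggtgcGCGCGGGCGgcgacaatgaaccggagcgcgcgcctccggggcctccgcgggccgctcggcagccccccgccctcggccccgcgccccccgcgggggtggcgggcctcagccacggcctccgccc
Nr4a3: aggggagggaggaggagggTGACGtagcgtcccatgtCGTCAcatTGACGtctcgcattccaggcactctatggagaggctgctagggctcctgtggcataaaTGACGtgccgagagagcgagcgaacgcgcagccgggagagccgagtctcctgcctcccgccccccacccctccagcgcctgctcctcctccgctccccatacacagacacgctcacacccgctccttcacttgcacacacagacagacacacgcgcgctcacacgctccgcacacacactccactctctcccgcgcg
Egr2: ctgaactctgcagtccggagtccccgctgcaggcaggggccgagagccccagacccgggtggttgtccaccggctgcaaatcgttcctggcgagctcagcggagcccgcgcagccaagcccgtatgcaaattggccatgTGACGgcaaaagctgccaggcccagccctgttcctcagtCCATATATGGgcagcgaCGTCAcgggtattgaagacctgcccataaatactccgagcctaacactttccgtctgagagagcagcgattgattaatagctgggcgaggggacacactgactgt
Each of the 3 NR4A windows held 4 CRE cores, a number reached by 0.231% of the 32851 windows in the table, and the Egr2 window held 2, a number reached by 5.01%. The windows are shown for this content, so its rarity is a description and no result. The share is over all windows, not over windows of like base composition. At least 1 CRE core was in 20.8% of windows. An EGR site was in the Nr4a1 and Nr4a2 windows, 1 each, against 5.55% of all windows. A CArG box was in the Egr2 window, against 1.63% of all windows. None of the windows held the full CRE TGACGTCA, which 1.79% of windows held. None held AAAGGTCA, the site that NR4A monomers bind, which 1.51% held. No match overlapped another. A match is a description of letters, not of binding.

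**Figure D1:**
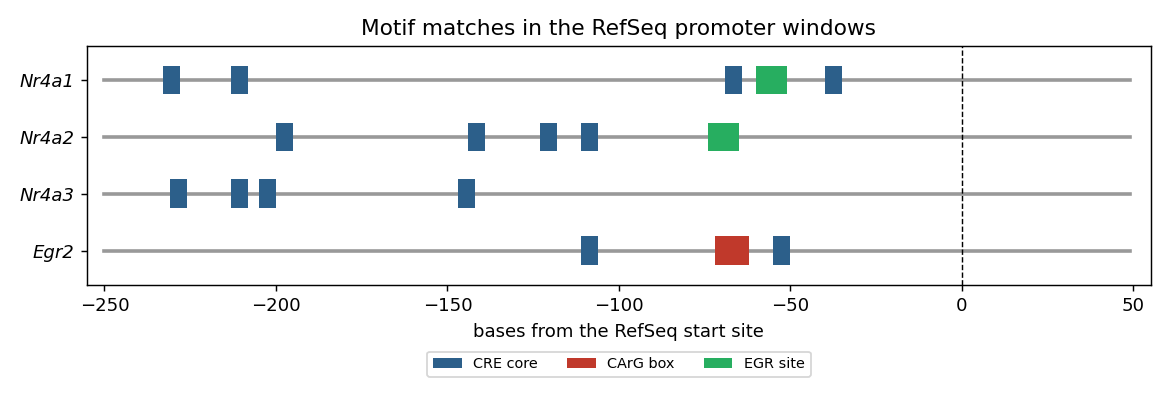
Motif matches in the RefSeq promoter windows of Nr4a1, Nr4a2, Nr4a3 and Egr2. The horizontal axis is the distance in bases from the RefSeq start site, the grey line is the window, and coloured boxes are matches on either strand. Each NR4A window has 4 CRE cores, all upstream of the start site, and the Egr2 window has 2 with a CArG box between them.

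In the Treg gate, the libraries were within 1.07-fold of each other for Nr4a1 and Nr4a2, while Nr4a3, Egr1, Egr2 and Egr3 had lower levels in fl/fl, with intervals that exclude 0. By the rule of size 2 of the 6 genes were lower in fl/fl, Egr2 and Egr3, where 10.1% of all measured genes were lower, and 0 were higher, where 2.69% of all measured genes were higher. Both Egr2 and Egr3 reached 10 CPM in the +/+ library alone, so that they could be measured only by being higher there, and their count supports nothing by itself. In effector cells the 2 lower genes were Nr4a3 and Egr3 (10.9% of all measured genes were lower there and 4.59% higher), and in central cells it was Egr3 alone of the 5 measured (9.71% lower and 2.28% higher among all measured genes). In both states Egr3 reached 10 CPM in +/+ alone, so that it could be counted only as lower in fl/fl.

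**Figure D2:**
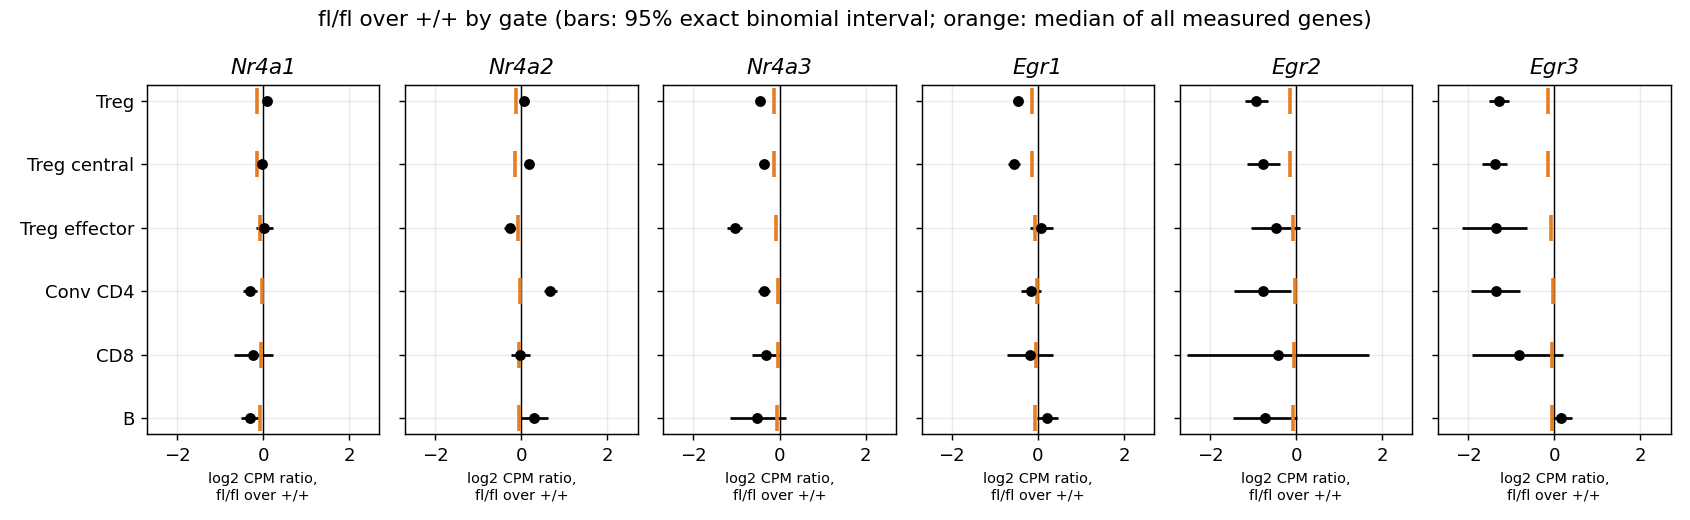
Log2 CPM ratio, fl/fl over +/+, of each gene in 6 gates. Points are ratios, bars are 95% exact binomial intervals for counting error, and orange marks are the median of all measured genes of the gate. Egr3 lies at -1.28 in the Treg gate and -1.36 in the conventional CD4 gate but at 0.16 in the B cell gate, and Nr4a3 lies at -1.04 in effector Treg cells.

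Nr4a1, also called Nur77 and widely used as a reporter of antigen receptor signal strength, had 169.8 CPM in fl/fl and 158.6 CPM in +/+ Treg gate cells. The log2 ratio of 0.10 (interval 0.04 to 0.16) lay above the median of all genes and was positive under all 10 alternative settings, where it ranged from 0.05 to 0.25. In central and effector cells the libraries were close, with both intervals including 0. Central cells had 189.7 CPM in fl/fl and 192.9 CPM in +/+, and effector cells had 108.2 CPM in fl/fl and 106.0 CPM in +/+. Cycling cells had 106.9 CPM in fl/fl and 87.3 CPM in +/+ (log2 ratio 0.29, interval 0.04 to 0.55). In interferon-responding cells the log2 ratio was 0.11, with an interval that includes 0. The effector value turned to -0.76 (interval -1.33 to -0.22) where Treg cells were taken only by a Foxp3 UMI. The gate as a whole held more central cells in fl/fl, and central cells had the higher level in both libraries. Effector cells were below central cells by a log2 ratio of -0.81 in fl/fl and -0.86 in +/+, and Nr4a1 was the only one of the 6 genes lower by the rule of size in effector cells, in both libraries (5.88% of measured genes were lower in fl/fl and 3.63% in +/+). Late effector cells, which carry Klrg1, Il10 or Gzmb, had 143.2 CPM in fl/fl against 91.6 CPM in early effector cells, and 144.2 CPM against 97.6 CPM in +/+. Outside the Treg gate Nr4a1 was lower in fl/fl, at 100.4 CPM in fl/fl and 124.8 CPM in +/+ conventional CD4 cells and at 79.6 CPM in fl/fl and 97.8 CPM in +/+ B cells. Nr4a1 lies on chromosome 15 (GRCm38, 101254269 to 101274795), 2.38 Mb from Kmt2d, so that for it a difference at the floxed allele and a difference carried along with that allele cannot be told apart.

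Nr4a2 (Nurr1, chromosome 2, 57106830 to 57124003) had 236.4 CPM in fl/fl and 226.3 CPM in +/+ Treg gate cells, a log2 ratio of 0.06 (interval 0.01 to 0.11) that turned to -0.032 when each cell was thinned to 2500 UMIs. It was higher in fl/fl central cells, at 240.7 CPM in fl/fl and 213.1 CPM in +/+, and lower in fl/fl effector cells, at 238.7 CPM in fl/fl and 287.2 CPM in +/+. The difference was larger in interferon-responding cells, at 276.6 CPM in fl/fl and 199.9 CPM in +/+ (log2 ratio 0.47), and in cycling cells, at 189.4 CPM in fl/fl and 126.0 CPM in +/+ (0.59). In cycling cells Nr4a2 was higher by the rule of size and the other 3 measured genes were neither higher nor lower, where 3.69% of all measured genes were higher and 6.55% lower. The effector value turned positive where Treg cells were taken only by a Foxp3 UMI (log2 ratio 0.10, interval including 0). With a 2-fold cut between the states the effector value was -0.11, with an interval that includes 0. The one gene higher by the rule of size in the conventional CD4 gate was Nr4a2, at 169.4 CPM in fl/fl and 106.0 CPM in +/+ (log2 ratio 0.68, interval 0.53 to 0.82), where 2.16% of measured genes were higher. After thinning that ratio was 0.45, short of 1.5-fold. The difference lay in activated conventional cells, which had 298.7 CPM in fl/fl and 159.2 CPM in +/+, while naive cells had 89.3 CPM in fl/fl and 93.0 CPM in +/+. Activated cells were 269 of 911 in fl/fl and 205 of 1000 in +/+.

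In both libraries Nr4a2 was higher in central Treg cells than in naive conventional CD4 cells, gates that were cut by different marker lists. Central Treg cells had a log2 ratio over naive conventional CD4 cells of 1.43 in fl/fl and 1.196 in +/+, against 0.79 in fl/fl and 0.29 in +/+ for Nr4a1 and 0.17 in both libraries for Nr4a3. Among B cells Nr4a2 was higher in marginal zone than in follicular cells, at 89.5 CPM against 35.0 CPM in fl/fl and at 52.7 CPM against 28.7 CPM in +/+.

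Nr4a3 (Nor1, chromosome 4, 48045153 to 48086447) had 170.2 CPM in fl/fl and 233.8 CPM in +/+ Treg gate cells (log2 ratio -0.46, interval -0.51 to -0.40). The gap was widest in effector cells, at 122.6 CPM in fl/fl and 251.8 CPM in +/+, 2.05-fold lower in fl/fl (log2 ratio -1.04, interval -1.21 to -0.87). Late effector cells had 90.6 CPM in fl/fl and 247.4 CPM in +/+, early effector cells 137.7 CPM in fl/fl and 252.8 CPM in +/+, and central cells 183.0 CPM in fl/fl and 235.5 CPM in +/+. Cycling cells had 119.3 CPM in fl/fl and 128.5 CPM in +/+, with an interval that includes 0. In the fl/fl library effector cells were below central cells (log2 ratio -0.58), at 1.49-fold just short of the rule of size. With a 2-fold cut between the states that log2 ratio was -0.78, and with the other scaling it was -0.80. In +/+ the log2 ratio was 0.10, turning to -0.050 with the 2-fold cut and to -0.063 with the other scaling. Conventional CD4 cells had 150.3 CPM in fl/fl and 193.1 CPM in +/+, and B cells had 8.21 CPM in fl/fl and 11.8 CPM in +/+. Nr4a3 had the widest range over the 11 finest gates of the NR4A genes, 35.6-fold in fl/fl and 33.1-fold in +/+, lowest in follicular B cells in both.

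The order of levels was read over the 11 finest gates, which give 10 pairs of neighbours for each gene and library. Nr4a1 was highest in central Treg cells and lowest in naive CD8 cells in both libraries, and 1 pair of neighbours in fl/fl and 2 in +/+ differed beyond counting error. Nr4a2 was highest in activated conventional CD4 cells in fl/fl (298.7 CPM) and in early effector Treg cells in +/+ (301.0 CPM), and lowest in follicular B cells in both, with 3 such pairs in fl/fl and 6 in +/+. Nr4a3 was highest in interferon-responding Treg cells in fl/fl (201.7 CPM) and in early effector Treg cells in +/+ (252.8 CPM), with 5 such pairs in fl/fl and 4 in +/+. Egr2 was highest in late effector Treg cells in both libraries, at 20.1 CPM in fl/fl and 22.0 CPM in +/+, and Egr3 in follicular B cells, at 73.1 CPM in fl/fl and 66.9 CPM in +/+. For these EGR genes and for Nr4a3 the highest gate did not differ from the next beyond counting error in either library. The same held for Nr4a1 and Nr4a2 in fl/fl, so these tops are not resolved at this depth. In +/+ the highest gate of Nr4a1 and of Nr4a2 stood above the next beyond counting error. Among the pairs of neighbours for Egr2 and Egr3 only 1 differed, for Egr3 in fl/fl. There marginal zone B cells (60.6 CPM) stood above interferon-responding Treg cells (10.6 CPM).

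**Figure D3:**
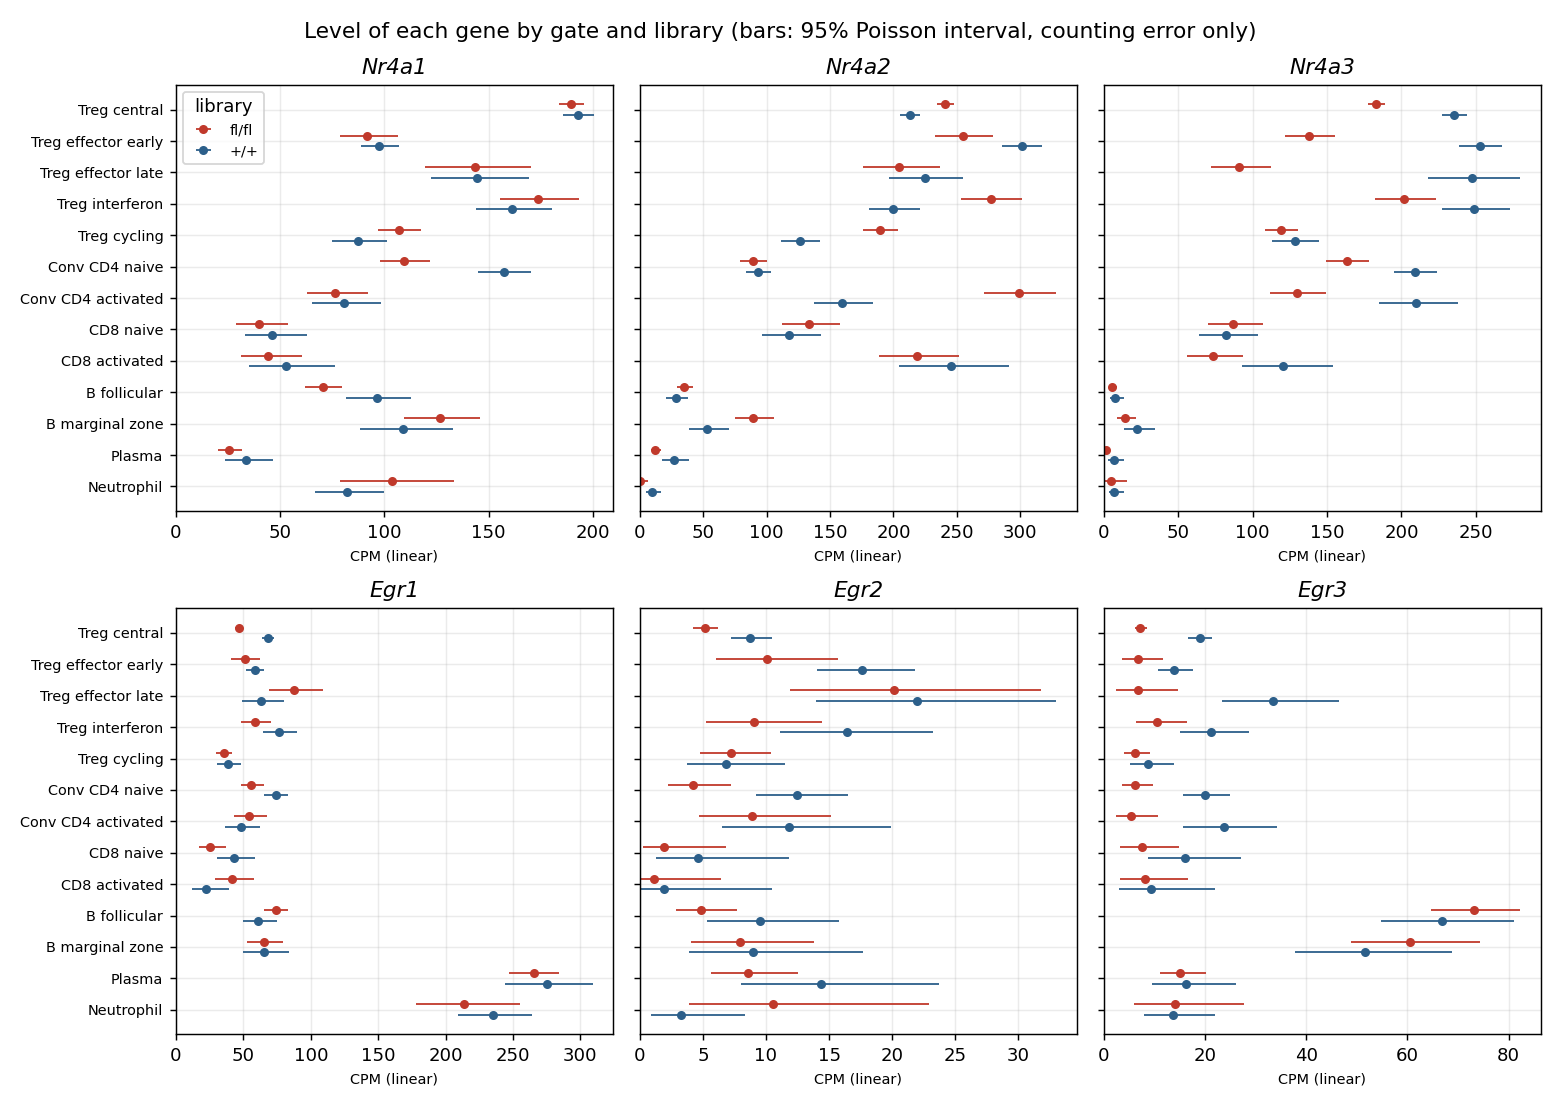
Level of each gene in 13 gates. The horizontal axes are linear CPM and differ between panels, points are fl/fl (red) and +/+ (blue), and bars are 95% exact Poisson intervals for counting error. Nr4a3 is low in B cells (8.21 CPM in fl/fl and 11.8 CPM in +/+ over the whole gate) and Egr3 is high there (70.8 CPM in fl/fl and 63.2 CPM in +/+).

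Egr1 (chromosome 18, 34859823 to 34864984) had 47.2 CPM in fl/fl and 65.3 CPM in +/+ Treg gate cells (log2 ratio -0.47, interval -0.57 to -0.36). Central cells had 46.5 CPM in fl/fl and 68.2 CPM in +/+, while effector cells had 62.6 CPM in fl/fl and 59.2 CPM in +/+, a log2 ratio of 0.08 whose interval includes 0. With Treg cells taken only by a Foxp3 UMI the effector ratio turned to -1.19 (interval -2.09 to -0.39). With the Treg states weighted alike in both libraries the ratio of the gate was -0.13. Conventional CD4 cells had 55.6 CPM in fl/fl and 62.1 CPM in +/+, and B cells had 73.3 CPM in fl/fl and 62.9 CPM in +/+, both with intervals that include 0. Over the 11 finest gates Egr1 spread least of the 6 genes, 3.41-fold in fl/fl and 3.37-fold in +/+, and no 2 neighbours in the order of levels differed beyond counting error in either library.

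Egr2 (chromosome 10, 67535475 to 67542188) had 6.60 CPM in fl/fl and 12.5 CPM in +/+ Treg gate cells, from 194 and 294 UMIs (log2 ratio -0.92, interval -1.19 to -0.65). It was the only one of the 6 genes higher by the rule of size in effector than in central cells, in both libraries, at 13.3 CPM against 5.16 CPM in fl/fl and at 18.4 CPM against 8.71 CPM in +/+ (19.6% of measured genes were higher in fl/fl and 12.7% in +/+). It reached 10 CPM in effector cells alone, so that it could be counted only as higher there. With Treg cells taken only by a Foxp3 UMI, the fl/fl ratio of effector over central cells turned to -1.43, with an interval that includes 0. The difference between libraries was smaller with the states weighted alike, -0.47, and larger without the 1% of cells with most Egr2 UMIs, -1.35. Effector cells by themselves had a log2 ratio of -0.47 whose interval includes 0, and of -3.34 (interval -8.71 to -0.73) with Treg cells taken only by a Foxp3 UMI. Naive conventional CD4 cells had 4.24 CPM in fl/fl and 12.4 CPM in +/+ (log2 ratio -1.55), from 13 and 48 UMIs.

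Egr3 (chromosome 14, 70077203 to 70082614) had 7.32 CPM in fl/fl and 17.8 CPM in +/+ Treg gate cells, from 215 and 419 UMIs, 2.44-fold lower in fl/fl (log2 ratio -1.28, interval -1.53 to -1.04). It was lower in fl/fl in each Treg state, with 7.28 CPM in fl/fl and 19.0 CPM in +/+ central cells, 6.83 CPM in fl/fl and 17.4 CPM in +/+ effector cells, and 10.6 CPM in fl/fl and 21.2 CPM in +/+ interferon-responding cells. In cycling cells, at 6.17 CPM in fl/fl and 8.83 CPM in +/+, the interval includes 0. Late effector cells stood furthest apart, at 6.71 CPM in fl/fl and 33.4 CPM in +/+, from 6 and 35 UMIs. Under the 10 alternatives the log2 ratio of the Treg gate ran from -1.63 to -1.14.

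The conventional CD4 gate may hold Treg cells whose Foxp3 RNA was missed. Egr3 was at a lower level in fl/fl conventional CD4 cells too. They had 6.95 CPM in fl/fl and 17.8 CPM in +/+ (log2 ratio -1.36, interval -1.94 to -0.80), from 36 and 110 UMIs, and both their naive cells (6.19 CPM in fl/fl and 19.96 CPM in +/+) and their activated cells (5.46 CPM in fl/fl and 23.7 CPM in +/+) were lower in fl/fl. In that gate Egr2 and Egr3 were the 2 genes of 6 lower by the rule of size, where 2.98% of measured genes were lower. Here too both reached 10 CPM in the +/+ library alone, so that they could be counted only as lower in fl/fl and the count supports nothing by itself. Egr2 had 5.99 CPM in fl/fl and 10.2 CPM in +/+ conventional CD4 cells (log2 ratio -0.77, interval -1.44 to -0.13). Without the 1% of cells with most Egr2 UMIs the interval of Egr2 in that gate included 0 (log2 ratio -0.79). Without the 1% of cells with most Egr3 UMIs the log2 ratio of Egr3 was -1.06, with an interval that excludes 0. In B cells, which had the most Egr3 of the 4 main gates in both libraries, the libraries were close, at 70.8 CPM in fl/fl and 63.2 CPM in +/+ (log2 ratio 0.16, interval -0.09 to 0.42). Over the whole gates, no gene of the 6 was higher or lower by the rule in B cells, where 1.7% of measured genes were higher and 2.91% lower, or in CD8 cells, where 1.66% were higher and 3.17% lower, with 5 of the 6 genes measured in each. Within their subsets, Nr4a2 was higher by the rule in fl/fl marginal zone B cells, at 89.5 CPM in fl/fl and 52.7 CPM in +/+, where 1.91% of measured genes were higher and 3.54% lower. Nr4a3 was lower by the rule in fl/fl activated CD8 cells, at 73.2 CPM in fl/fl and 120.6 CPM in +/+, where 1.89% were higher and 3.43% lower.

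Free RNA of B cells could bring Egr3 into Treg gate cells, and its part was not tested. B cell marker genes summed to 6.47 CPM in fl/fl and 15.3 CPM in +/+ Treg gate cells. In B cells they summed to 4424 CPM in fl/fl and 4597 CPM in +/+. With free RNA in the proportions of B gate cells, that would carry 0.104 CPM of Egr3 in fl/fl and 0.211 CPM in +/+. The Treg gate left out cells with over 2 B cell marker UMIs, so these values are not upper limits. None of the 4 B cell markers was at 0 in the Treg gate of either library. Plasma cells had the most Egr1 of any gate. Reckoned alike, they would carry 0.398 CPM of it into fl/fl and 0.416 CPM into +/+ Treg gate cells.

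Shares of cells with a UMI were compared after thinning each cell to 2500 UMIs, since the median depth of Treg gate cells was 7062 UMIs in fl/fl and 5720 in +/+. Thinning left out 8 fl/fl and 22 +/+ Treg gate cells. Nr4a3 was found in 31.0% of fl/fl and 38.7% of +/+ Treg gate cells, against 1.94% of fl/fl and 1.74% of +/+ B cells (median depths 4325.5 and 4805), so that the Treg shares stood far above those of a lineage with little of the gene. Unthinned, the Treg shares were 57.3% in fl/fl and 60.1% in +/+. Nr4a1 was found in 32.2% of fl/fl and 28.2% of +/+ Treg gate cells and Nr4a2 in 34.5% of fl/fl and 31.9% of +/+ cells. Egr1 was found in 8.99% of fl/fl and 12.6% of +/+ cells, Egr2 in 1.38% of fl/fl and 2.83% of +/+ cells, and Egr3 in 1.35% of fl/fl and 3.65% of +/+ cells (3.86% and 6.47% unthinned). In effector cells Egr3 was found in 1 of 428 fl/fl cells (0.234%) and 33 of 1015 +/+ cells (3.25%), a gap that rests on 1 fl/fl cell. Unthinned, the effector shares were closer, at 3.25% in fl/fl and 4.97% in +/+, with median depths of 5848 UMIs in fl/fl and 4964 in +/+. Thinning moved the log2 CPM ratio of Egr3 in effector cells from -1.35 to -4.51. In conventional CD4 cells the Egr3 shares were closer than the CPM, at 1.99% in fl/fl (interval 1.18% to 3.12%) and 2.42% in +/+ (1.55% to 3.57%), so that there the difference in CPM was not detectable as a difference in the share of cells.

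**Figure D4:**
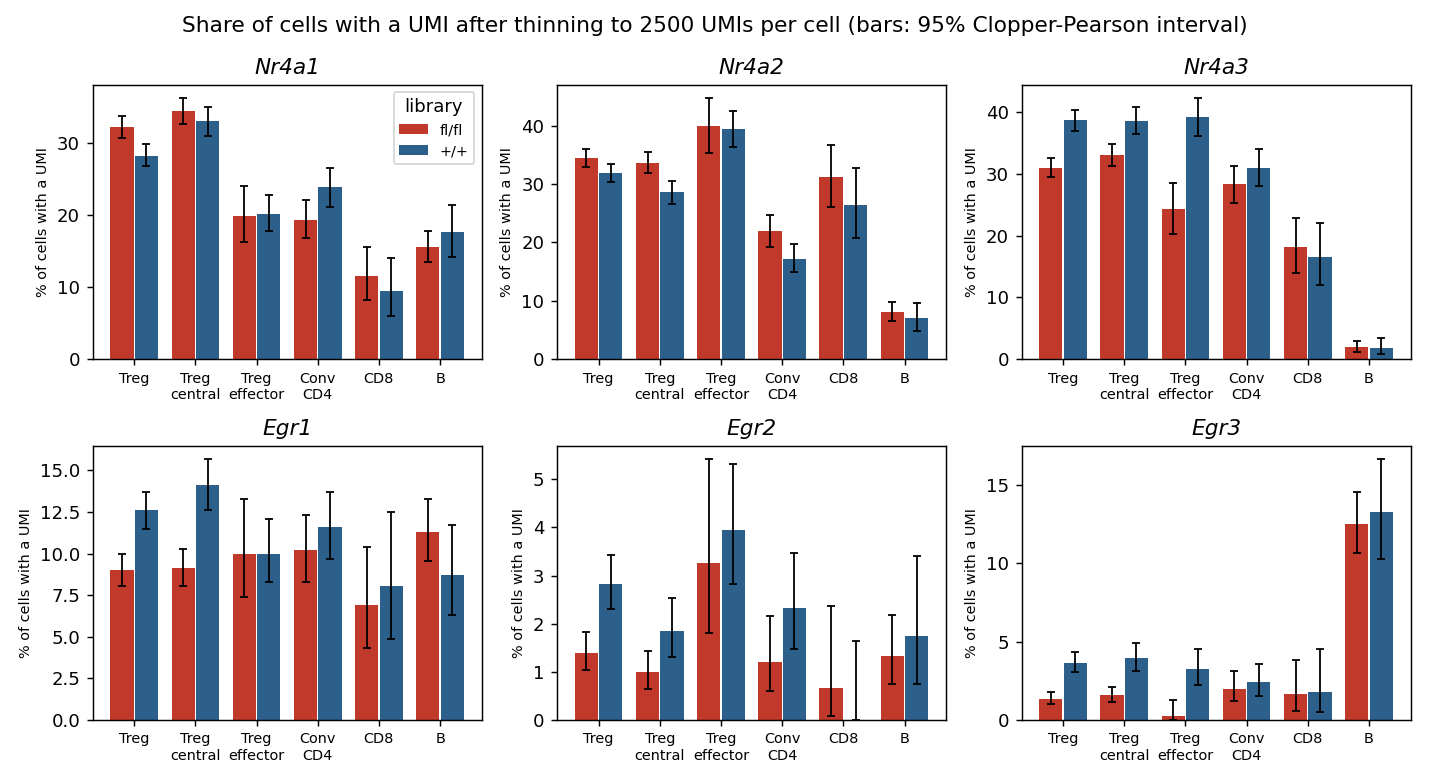
Share of cells with at least 1 UMI of each gene after thinning to 2500 UMIs per cell. Bars start at 0 with 95% Clopper-Pearson intervals for counting error, and the vertical axes differ between panels. Egr3 is in 1.35% of fl/fl and 3.65% of +/+ Treg gate cells and in 12.5% of fl/fl and 13.3% of +/+ B cells.

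Egr2 and Egr3 RNA was concentrated in few Treg cells. The 1% of Treg gate cells with most Egr3 UMIs held 52.1% of all its UMIs in fl/fl and 40.8% in +/+, and for Egr2 the shares were 56.2% in fl/fl and 40.8% in +/+. For Nr4a2 the same 1% held 8.80% in fl/fl and 9.40% in +/+. A gene of few UMIs is bound to sit in few cells, so these shares are given as a description. The EGR genes were also found together. In thinned Treg gate cells, Egr2 and Egr3 shared 5 cells in fl/fl and 29 in +/+, which is 7.38 and 7.94 times the product of their shares. For Egr1 with Egr2 the factor was 3.12 in fl/fl and 3.90 in +/+, and for Egr1 with Egr3 it was 3.41 in fl/fl and 2.96 in +/+. Between NR4A genes the factors were 1.06 in fl/fl and 1.01 in +/+ for Nr4a1 with Nr4a2, with intervals that include 1. They were 1.16 in fl/fl and 1.18 in +/+ for Nr4a1 with Nr4a3, and 1.14 in fl/fl and 1.17 in +/+ for Nr4a2 with Nr4a3, with intervals that exclude 1. Nr4a1 with Egr3 gave 1.78 in fl/fl and 2.00 in +/+. For the stress and activation gene Fos with each of the 6, the factor ran from 0.755 to 1.14 in fl/fl and from 0.985 to 1.04 in +/+. A factor cannot exceed 1 divided by the larger of the 2 shares. Genes found in many cells, such as the NR4A genes and Fos, are therefore held to low factors. Factors are not compared between families for this reason. Cells with UMIs of at least 4 of the 6 genes made up 1.35% in fl/fl (49 cells) and 2.89% in +/+ (102 cells), against 0.452% in fl/fl and 0.833% in +/+ from the product of the shares.

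**Figure D5:**
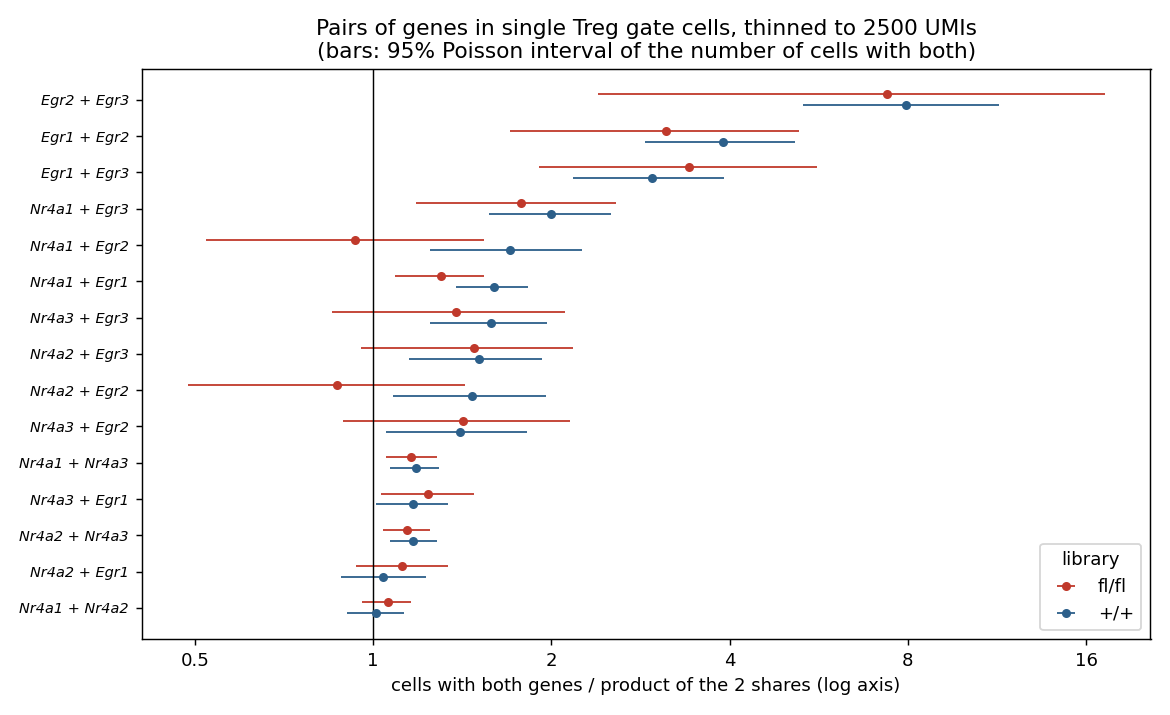
Cells with UMIs of both genes of a pair, divided by the number the product of the 2 shares gives, in Treg gate cells thinned to 2500 UMIs. The horizontal axis is logarithmic, points are fl/fl (red) and +/+ (blue), and bars are 95% exact Poisson intervals of the number of cells with both. The pairs within the EGR family lie highest, led by Egr2 with Egr3 at 7.38 in fl/fl and 7.94 in +/+. Genes with low shares can reach higher factors than genes with high shares, so heights are not compared between families.

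Of the corepressors and partners of these factors, 6 of 8 listed genes were measured in the Treg gate, with 0 higher and 2 lower in fl/fl, against 2.69% and 10.1% of all measured genes, and a median log2 ratio of -0.15, against -0.13 for all. Nab2, which binds EGR factors and is induced by them, had 17.4 CPM in fl/fl and 34.2 CPM in +/+ (log2 ratio -0.98). Its relative Nab1 had 61.1 CPM in fl/fl and 61.2 CPM in +/+. Hdac7, a histone deacetylase that represses Nr4a1 in thymocytes, had 53.7 CPM in fl/fl and 93.8 CPM in +/+ (log2 ratio -0.81), and it too lies on chromosome 15. Ncor1, a corepressor of nuclear receptors, was at 349.2 CPM in fl/fl and 365.3 CPM in +/+.

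In the receptor, calcium and MAPK relay that leads to NR4A and EGR genes, 29 of 30 genes were measured, 0 higher and 5 lower in fl/fl, against 2.69% higher and 10.1% lower among all measured genes, with a median of -0.25 against -0.13 for all. The lowest were the calcium-regulated factors Nfatc2, at 25.9 CPM in fl/fl and 46.2 CPM in +/+, and Nfatc1, at 92.4 CPM in fl/fl and 163.0 CPM in +/+. The highest was Ppp3ca, the calcineurin subunit that activates them, at 290.2 CPM in fl/fl and 202.6 CPM in +/+, short of the 1.5-fold rule. Of 27 measured genes that receptor stimulation induces, 1 was higher and 11 lower, against 2.69% higher and 10.1% lower among all measured genes. Their median was -0.57 over the whole gate, against -0.13 for all. Within the states, which the libraries held in different shares, the median was nearer to 0, at -0.19 over 24 measured genes in central cells and -0.32 over 26 in effector cells. These medians are over different sets of genes, and the counts stayed alike. Central cells had 2 higher and 11 lower, against 2.28% and 9.71% of all measured genes. Effector cells had 2 higher and 10 lower, against 4.59% and 10.9%. The list of induced genes holds Icos, Il2ra and Ctla4, which were also markers used to cut the gates. Tox2, a nuclear factor of chronically stimulated T cells, had 6.74 CPM in fl/fl and 43.4 CPM in +/+, and Cd83, an activation marker, had 30.4 CPM in fl/fl and 131.6 CPM in +/+. The chemokine gene Xcl1 went the other way, with 17.8 CPM in fl/fl and 5.36 CPM in +/+. The 9 measured anergy genes linked to Egr2 and Egr3 had 0 higher and 0 lower, against 2.69% higher and 10.1% lower among all measured genes. The median of the 9 was -0.09, against -0.13 for all. Of these anergy genes the ubiquitin ligase gene Cblb, an EGR target in anergic cells, had 876.0 CPM in fl/fl and 588.9 CPM in +/+. Dgkz, a kinase that removes diacylglycerol, had 99.5 CPM in fl/fl and 136.1 CPM in +/+.

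Genes that cells also switch on while tissue is taken apart were read beside the EGR genes. Of 24 measured immediate-early and dissociation genes 1 was higher and 7 lower in the fl/fl Treg gate, against 2.69% higher and 10.1% lower among all measured genes. Their median was -0.39, against -0.13 for all, with a summed level of 8682 CPM in fl/fl and 11640 CPM in +/+. Dusp1, a MAPK phosphatase, had 310.1 CPM in fl/fl and 754.0 CPM in +/+, while Myc had 98.7 CPM in fl/fl and 65.7 CPM in +/+. In the conventional CD4 gate, where Egr3 was lower by a like ratio, 0 of 24 were higher and 1 was lower, against 2.16% higher and 2.98% lower among all measured genes, with a median of -0.13 and a summed level of 9190 CPM in fl/fl and 9907 CPM in +/+. Their part in the EGR values was not tested.

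Over 10 gates in both libraries, giving 20 points that share libraries, the genes most like each member in level were found among 8175 genes by Pearson's r of log2(CPM + 5). Nr4a3 was closest to Ski, with r of 0.974, Tnfaip3, 0.965, and Mllt3, 0.964. Nr4a2 was closest to Traf1, 0.923, Il2rb, 0.913, and Gramd1b, 0.91. Egr3 was closest to Mgrn1, 0.915, Cfap43, 0.913, and Syvn1, 0.908, all 3 of them higher in B cells than in Treg gate cells in both libraries. Egr2 was closest to Pear1, 0.882, Crem, 0.842, and Eml6, 0.836. Nr4a1 was closest to Xxylt1, 0.879, Coro2a, 0.823, and Gm10130, 0.818, and Egr1 to Glcci1, 0.792, Tbk1, 0.786, and Zfp120, 0.767. Between members r was 0.828 for Nr4a2 with Nr4a3 and -0.71 for Nr4a2 with Egr3.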

How the data were processed

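Raw UMI counts per gene and barcode were analysed as deposited by the authors. They were made with Cell Ranger 7.1.0 per the file headers, and the submitters' processing notes also name fastp, Seurat 4.1.1 and the builds mm10 and GRCm38. The counts are whole numbers with no normalization. How the deposited barcodes were chosen is not given in the sources used here.

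Barcodes with at least 500 genes and at most 10% mitochondrial counts were kept, and those with over 3 erythroid UMIs were left out, leaving 8616 fl/fl and 7776 +/+. Of these, 6028 (70.0%) and 5243 (67.4%) fell in the 4 main gates. T cells had at least 5 UMIs of Cd3d, Cd3e, Cd3g and Trbc2 and few of other lineages, which also served to leave out doublets. Treg cells had a Foxp3 UMI, or at least 4 Ikzf2 UMIs with Il2ra or Ctla4, and at most 1 CD8 UMI. Conventional CD4 cells had a Cd4 UMI, no Foxp3 and at most 1 Ikzf2 UMI. CD8 cells had at least 3 Cd8a and Cd8b1 UMIs, and B cells at least 8 UMIs of B cell markers, Cd79a and Cd79b among them. Cycling cells (at least 5 UMIs) and interferon-responding cells (at least 7) were set apart first, and the other Treg cells were split into effector and central by the larger marker sum. Of those, 240 (7.55%) fl/fl and 552 (17.9%) +/+ cells lay within 2-fold of that cut. The thresholds were set after the marker distributions were seen. Scrublet's own threshold called 2 and 0 barcodes and so had not worked. An Otsu threshold called 188 (2.18%) and 143 (1.84%), which were left out only as an alternative.

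Counts were summed per library and gate and divided by the gate's total UMIs (CPM). Sums have exact Poisson intervals and shares have Clopper-Pearson intervals, at 95%. The calculation was tested on simulated data. Python 3.11.15, numpy 2.4.6, scipy 1.17.1, pandas 2.3.3, scanpy 1.11.5 and matplotlib 3.10.9 were used. The genes described and the gene lists were chosen with earlier results of these data known. Besides the 6 genes, each list names up to 4 measured genes with the largest Treg ratios, 2 each way, and the 3 genes most like each member are named. Alternatives were thinning, other filters, stricter Treg gates, doublet calls, deep cells or top cells left out, a 2-fold state cut, another scaling, states weighted alike, and other floors and folds.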

Additional observations from a re-analysis of the deposited data

Results flagged for a closer look

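Nr4a1 had ratios of opposite sign between whole gates. Its log2 ratio, fl/fl over +/+, was 0.10 in the Treg gate, but -0.31 in the conventional CD4 gate and -0.30 in the B cell gate, each with an interval for counting error that excludes 0. In central and effector Treg cells the values were near 0, at -0.02 in central and 0.03 in effector cells, with intervals that include 0. Cycling Treg cells had 0.29, with an interval that excludes 0, and interferon-responding Treg cells had 0.11, with an interval that includes 0. In B cells thinning gave -0.11, with an interval that includes 0, and marginal zone cells went the other way, at 126.4 CPM in fl/fl and 108.8 CPM in +/+ (log2 ratio 0.22, interval including 0). The difference between the gates was not tested, since each genotype has 1 library.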

How the results depend on the processing

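No paired analysis was possible because each genotype has 1 library, both numbered replicate 1, and leaving out a replicate was not possible for the same reason. Over 50 results and 429 alternative values, 367 moved by less than the counting interval of the value (for counts of genes, by less than 1.5-fold). Log2 ratios below are fl/fl over +/+ in the Treg gate unless said. Thinning gave 0.18 for Nr4a1, -0.032 for Nr4a2 (a reversal) and -1.62 for Egr3. Taking Treg cells only by a Foxp3 UMI gave 0.29 for Nr4a2, -0.69 for Egr1 and -0.65 for Egr2, and in effector cells it reversed Nr4a2 to 0.10 and gave -0.76 for Nr4a1, -1.19 for Egr1 and -3.34 for Egr2. Asking for a Cd4 UMI gave 0.12 for Nr4a2, -0.61 for Egr2 and -1.63 for Egr3. Scaling by the median gene-wise ratio, which shifts all Treg ratios alike, gave 0.25 for Nr4a1, 0.21 for Nr4a2, -0.31 for Nr4a3 and -0.32 for Egr1. States weighted alike gave 0.13 for Nr4a2, -0.60 for Nr4a3, -0.13 for Egr1 and -0.47 for Egr2. Without the 1% of cells with most UMIs of the gene, Egr2 was -1.35 and Egr3 -1.59. For effector over central cells in fl/fl, a Foxp3 UMI gave -1.50 for Nr4a1, 0.13 for Nr4a2 and reversed Egr1 to -0.67 and Egr2 to -1.43. There a Cd4 UMI gave 0.67 for Egr1 and 0.76 for Egr3, thinning gave 0.20 for Nr4a2 and -3.10 for Egr3, the other scaling gave -1.03 for Nr4a1, -0.23 for Nr4a2 and -0.80 for Nr4a3, and the 2-fold cut gave -0.78 for Nr4a3. For effector over central cells in +/+, a Foxp3 UMI gave -0.70 for Nr4a1, 0.33 for Nr4a2 and 0.21 for Nr4a3, and thinning gave 0.56 for Nr4a2. There the other scaling gave -1.02 for Nr4a1, 0.27 for Nr4a2 and a reversal to -0.063 for Nr4a3, the 2-fold cut reversed Nr4a3 to -0.050, and without the top 1% of cells Nr4a1 was -1.02 and Egr3 -0.51. The cause was not tested. In the Treg gate 216 genes were higher and 811 lower, against 77 and 311 at a fold of at least 2 and 732 and 2238 with no CPM floor. Low counts limit Egr2 and Egr3 most.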

Other observations

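Plasma cells and neutrophils, cell types outside the 4 main gates, had the most Egr1, at 265.3 CPM in fl/fl and 275.4 CPM in +/+ plasma cells and 214.0 CPM in fl/fl and 235.3 CPM in +/+ neutrophils. Both intervals of the ratio between libraries include 0. Nr4a2 was low in neutrophils, with 0 UMIs in the 61 fl/fl cells and 12 UMIs in the 125 +/+ cells. After thinning, 0 of 54 fl/fl neutrophils had a Nr4a2 UMI, which allows up to 5.56% of cells (3 cells of the total) with a UMI at this depth and sets no limit on cells that express the gene.

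The balance of NR4A to EGR UMIs differed between T and B cells. The sum of the 3 NR4A genes over the sum of the 3 EGR genes was 9.43 in fl/fl and 6.47 in +/+ Treg gate cells, and 0.886 in fl/fl and 1.08 in +/+ B cells, where marginal zone cells had 1.72 in fl/fl and 1.46 in +/+. Within the EGR sum Egr3 took 12.4% in fl/fl and 19.8% in +/+ central Treg cells, and 47.2% in fl/fl and 46.6% in +/+ B cells. These are ratios of 3′ UMIs, one per molecule, and are compared only between gates.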
